A study of Mus musculus with 24 samples.

Results

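Tumour-bearing livers of Mdr2-/- mice were compared with control livers of the same genotype, across every gene expressed well enough to be tested. The comparison takes in 12 of the 24 libraries of the series, namely the 6 given the treatment label CCA.Mdr2-/- and the 6 labelled Ctrl.Mdr2-/-, and 17216 genes. Mice of both groups lack Abcb4, the gene also called Mdr2. Tumour-bearing livers had been transduced with AKT and YAP1, oncogenes that the series' title describes as integrated by a transposon in a model of cholangiocarcinoma, the cancer of the bile ducts. Control livers had received an empty transduction. The other 12 libraries are tumour-bearing and control livers of wild-type mice treated the same way, and they enter here through the shared estimate of spread and the test of whether an effect differed between genotypes. The labels give neither the age nor the sex of the mice, nor the promoter and species of origin of the delivered sequences. Xist, the RNA of X inactivation, stood at 549 to 1837 CPM in the 12 libraries, and the Y-linked genes Ddx3y, Kdm5d, Eif2s3y and Uty at 0.809 CPM or less. Each library is labelled as individual tissue, and whether each is of its own animal is not stated. The p-values thus speak only of the spread over these libraries.

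Abcb4 encodes the transporter that places phosphatidylcholine in the canalicular membrane, from where it enters bile and shields the duct epithelium from bile salts. Its loss is known to lead to leaky ducts, inflammation around the portal tracts and progressive fibrosis. The control livers of this comparison may thus be diseased themselves, which was not tested. AKT acts below growth factor receptors on growth and lipid synthesis, and YAP1 is the transcriptional effector of the Hippo pathway, which works through TEAD factors and can turn hepatocytes toward a biliary fate. Together the pair is a common way to induce duct-like liver tumours in mice.

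Levels are given as CPM, a gene's counts scaled to a common library size with TMM factors, which correct for differences in composition, as the lowest, the highest and the median value of each group of 6. Changes are log2 fold changes ± SE, tumour-bearing minus control, from an edgeR quasi-likelihood fit of all 24 libraries. A gene was called risen or fallen at a Benjamini-Hochberg adjusted p under 0.05. Total counts were 24245316 to 28304090 in tumour-bearing and 26974376 to 30053571 in control libraries, so that 1 CPM rests on 26.6 to 34.2 counts. The tissue is bulk liver, in which fewer cells of a type and less RNA per cell cannot be told apart.

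Libraries stood apart from their groups in 2 ways. The first concerns skeletal muscle RNA, measured with 20 muscle genes such as Ttn, which encodes the giant sarcomere protein titin (this list was drawn up after the values had been seen). Tumour-bearing replicates 1 to 4 and control replicates 2 to 5 carried 0.0894 to 0.164% of their counts in these genes, against 0.00302 to 0.00406% in tumour-bearing replicates 5 and 6 and control replicates 1 and 6. The second principal component, with 17.0% of the variance of the 12 libraries, separated the same 4 libraries from the other 8. As both groups hold 4 libraries with muscle RNA and 2 without, it is balanced between them, and with its presence as a covariate 3124 genes rose and 2873 fell, where 3074 and 2921 did in the fit used throughout. Of the 5995 calls, 5840 were kept. Within the 4 and 4 libraries with muscle RNA 711 genes rose and 350 fell, and within the 2 and 2 without it 2059 and 2094. Fold changes of the genes called were a median 0.80 and 1.40 of their pooled size in these subsets. A test of the difference between the subsets called 0 genes by edgeR (1347, or 7.82%, at an unadjusted p under 0.05). Where the muscle RNA came from was not tested.

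**Figure D1:**
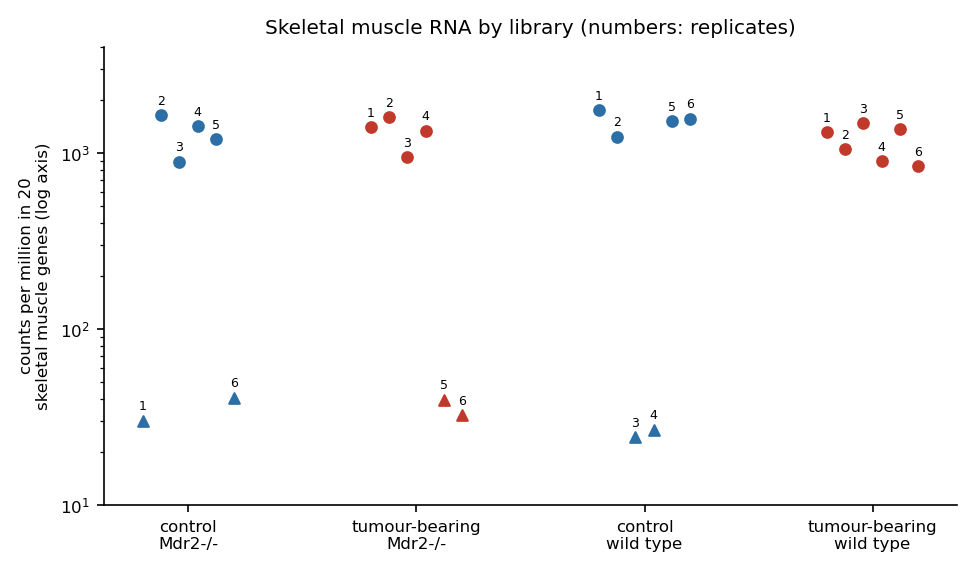
CPM without TMM factors, summed over 20 skeletal muscle genes (vertical log axis), for each library of the series by group, numbered by replicate. Circles are the 18 libraries above 500 CPM and triangles the 6 below it, of which 2 are control and 2 tumour-bearing Mdr2-/- livers.

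The second is the share of 7 nuclear non-coding RNAs, among them Malat1, Neat1, Xist and Gm26917. Most of the share lay outside Malat1 and Xist, and which members carried its difference was not tested. They took 4.60 to 7.95% of the counts in tumour-bearing livers (median 6.05%) and 1.74 to 4.29% in controls (median 3.17%), with no overlap between the groups. With this share as a covariate 697 genes rose and 263 fell, 765 of the 5995 calls were kept and 4986 of the 5995 kept their sign. Of the 2 kinds of library difference this is the one that moves with the groups, so its part in the results cannot be told apart from the tumour. The counts under this covariate are printed with the gene groups. Among the 992 risen genes that lay above all controls in 5 of 6 tumour-bearing libraries, the exception was most often replicate 1 (366 genes), followed by replicate 3 (188), and least often replicate 6 (28).

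Abcb4, the deleted gene, was at 23.8 to 41.6 CPM (median 31.3) in controls and 21.7 to 59.3 CPM (median 25.9) in tumour-bearing livers. Wild-type livers were far higher, at 244 to 377 CPM (median 274) in controls and 165 to 361 CPM (median 215) in tumour-bearing livers, with no overlap between the genotypes. Which part of the gene is disrupted is not given in the labels, and whether the remaining counts lie outside it was not tested. Its change of -0.07 ± 0.22 (edgeR adjusted p = 0.819) did not pass, and tumour-bearing replicate 1, the highest library at 59.3 CPM, lay above the 6 controls. Akt1, the mouse gene for a kinase of the delivered family, was at 49 to 64.4 CPM (median 52.2) in controls and 44.9 to 134 CPM (median 116) in tumour-bearing livers, a change of 0.90 ± 0.25 (edgeR adjusted p = 0.00958). It was above every control in 5 of 6 tumour-bearing libraries, replicate 1 being at 44.9 CPM, below them all. Yap1 went the other way, at 59.1 to 86.3 CPM (median 72.4) in controls and 40.7 to 58.6 CPM (median 52.5) in tumour-bearing livers, with a change of -0.51 ± 0.15 (edgeR adjusted p = 0.0137) and no overlap, though under the nuclear RNA covariate its change was 0.03. How far reads of the delivered sequences were counted in the mouse genes was not tested.

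Across the genes tested, 3074 rose (17.9%) and 2921 fell (17.0%), a total of 5995 (34.8%). Rises were larger than falls. At least 2-fold higher were 1580 genes (9.18%), against 338 at least 2-fold lower (1.96%), and 364 rose but 8 fell 4-fold or more. The median change was 1.02 for risen genes, -0.62 for fallen genes and 0.04 for all genes tested. In 1271 genes (7.38%) each tumour-bearing library lay above each control, and in 1311 (7.62%) each lay below. The counts of calls and of members without overlap in each list below are to be read against these shares. The balance of rises and falls depended on the scaling. When library totals replaced TMM, which moved the median of all genes to 0.28, 5565 genes rose and 924 fell, and on the authors' TPM with limma, which moved it to 0.10, 4109 rose and 1036 fell. Every change below is on the TMM scale. Without tumour-bearing replicate 6, 1927 genes fell. The number in the sample titles, which the labels do not explain, is below 2000 for 3 tumour-bearing and 4 control libraries. Within these 545 genes rose and 219 fell, within the others 1752 and 1833, and with the range as a covariate 2908 and 2858.

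**Figure D2:**
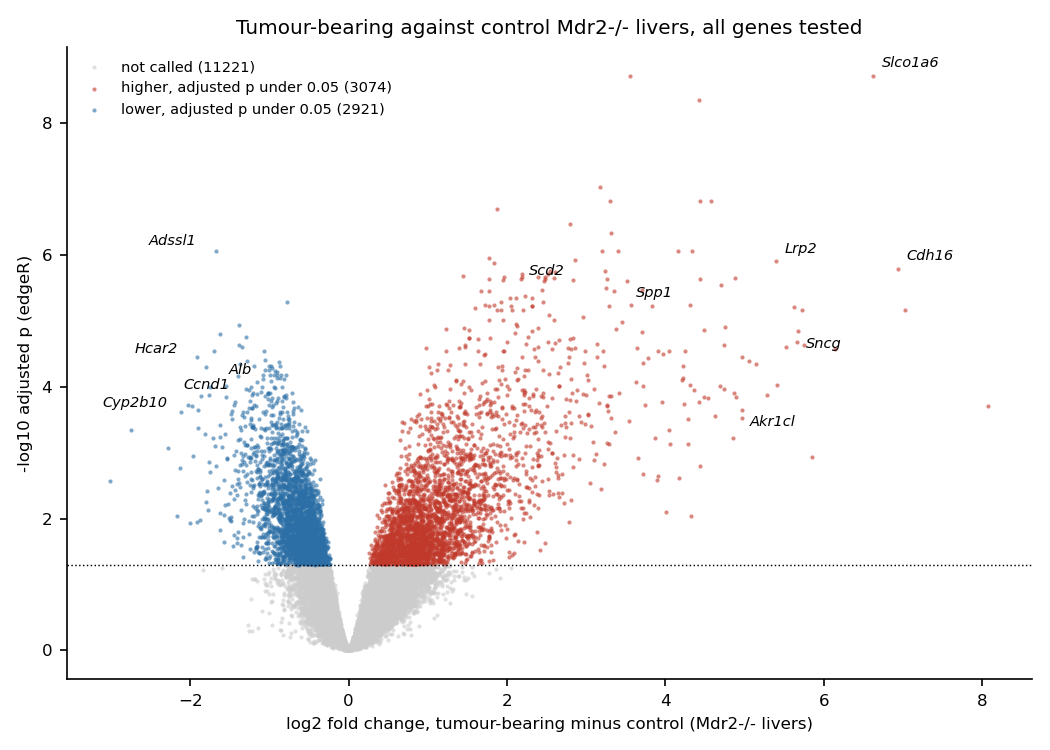
Log2 fold change (horizontal axis, tumour-bearing minus control Mdr2-/- livers) against -log10 of the edgeR adjusted p (vertical axis) for the 17216 genes tested. Red points are the 3074 risen genes, blue points the 2921 fallen genes, and the dotted line marks an adjusted p of 0.05. Rises reach further from 0 than falls.

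The classes of RNA moved unequally. By the gene types of GENCODE M21, 496 of 1958 long non-coding RNAs rose and 30 fell (median change 0.52), and 37 of 165 small RNAs rose and 1 fell. Protein-coding genes were nearly balanced, with 2458 risen and 2858 fallen of 14523 (median -0.02). With the nuclear RNA share as a covariate 24 long non-coding RNAs rose and 4 fell (median 0.10). Under it 663 protein-coding genes rose and 252 fell. Malat1, an abundant RNA of nuclear speckles, was at 669.6 to 938 CPM (median 822) in controls and 974 to 2663 CPM (median 1619.8) in tumour-bearing livers, a change of 1.11 ± 0.25 (edgeR adjusted p = 0.00196). The groups did not overlap. Malat1 was a small part of the nuclear RNA list. That list summed to 17063.7 to 43456.6 CPM in controls and 39428.4 to 77173.5 CPM in tumour-bearing livers.

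Most bile duct epithelium markers were higher in the tumour-bearing livers. Of 24 listed genes 23 were tested, and 14 rose and 0 fell, with a median change of 1.35. In 4 each tumour-bearing library lay above each control, against 7.38% of all genes. Spp1, which encodes the secreted phosphoprotein osteopontin, was at 40 to 251 CPM (median 92.8) in controls and 1050.5 to 3826 CPM (median 2018) in tumour-bearing livers. The change was 4.31 ± 0.54 (edgeR adjusted p = 5.77e-06), and the lowest tumour-bearing library was well above the highest control. Krt7, a keratin of duct cells, went from a median of 2.54 CPM (1.52 to 8.88) to 22.8 CPM (7.8 to 29.5), a change of 2.54 ± 0.50 (edgeR adjusted p = 0.000728). Sox9, the transcription factor of duct and progenitor cells, went from a median of 11.2 CPM (7.66 to 26.7) to 39.1 CPM (17.8 to 49.5), and Ehf, an epithelial factor of the ETS family, from a median of 2.86 CPM (1.37 to 6.25) to 22.8 CPM (5.53 to 47.5), with changes of 1.35 ± 0.33 (adjusted p = 0.00429) and 2.84 ± 0.61 (adjusted p = 0.00166). In these 3 genes the lowest tumour-bearing library lay below the highest control. Cftr, the chloride channel of duct secretion, changed by 2.35 ± 0.61 (edgeR adjusted p = 0.00631) and Cd24a, a surface glycoprotein of progenitor cells, by 1.59 ± 0.36 (edgeR adjusted p = 0.00203).

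Not every duct marker moved. Epcam (0.92), Cldn7 (0.76), Muc1 (-0.20), Aqp1 (-0.24), Cdh1 (-0.31), Prom1 (-0.44), Elf3 (-0.50) and Cldn4 (-0.58) did not pass. With the nuclear RNA share as a covariate 8 of the 23 rose and 0 fell, and in the libraries with and without muscle RNA 5 and 9 rose.

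The largest rises of the comparison were of genes that are near silent in control liver. Among genes of at least 5 CPM in tumour-bearing livers whose groups did not overlap, the first was Cdh16, a cadherin known from kidney tubules, at 0.0334 to 0.144 CPM (median 0.0878) in controls and 1.97 to 22.6 CPM (median 7.73) in tumour-bearing livers. Its change was 6.93 ± 0.76 (edgeR adjusted p = 1.62e-06). Slco1a6, an organic anion carrier known from kidney, was at 0.0351 to 0.367 CPM (median 0.184) in controls and 9.87 to 27.7 CPM (median 19.9) in tumour-bearing livers, with a change of 6.62 ± 0.48 (edgeR adjusted p = 1.92e-09). Lrp2, or megalin, the endocytic receptor of proximal tubules, was at 0.10 to 0.468 CPM (median 0.165) in controls and 3.65 to 16.5 CPM (median 8.92) in tumour-bearing livers, a change of 5.4 ± 0.58 (edgeR adjusted p = 1.23e-06). In each of these 3 genes every tumour-bearing library lay far above every control. The others were Sncg (5.67 ± 0.74), which encodes gamma-synuclein, Akr1cl (4.97 ± 0.87), of the aldo-keto reductases, Efhd1 (4.88 ± 0.56), a calcium-binding protein of mitochondria, Wfdc18 (4.69 ± 0.72), of the whey acidic protein family, and Prss35 (4.53 ± 0.74), of the serine proteases. Adjusted p-values of these 5 were 2.23e-06 to 0.000296 (edgeR). Controls of Cdh16, Slco1a6 and Lrp2 were too low to bring these genes through the filter, so their calls are no support. Whether that holds for the other 5 was not tested.

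The kidney list went with these rises in part. Of its 20 genes 12 were too low to be tested, among them Umod, Slc34a1, Slc12a1 and Pax2, and Aqp2 and Slc22a6 had 0 counts in the 12 libraries. Of the 8 tested Cdh16, Slco1a6, Lrp2, Cubn and Pax8 rose and Slc17a1 fell, the calls of Cubn and Pax8 being lost in some fits that leave out 1 library. Members that passed the filter only because they are high in tumour-bearing livers had to differ, so this count is no support. Without tumour-bearing replicate 6 or without control replicate 1, 3 rose.

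**Figure D3:**
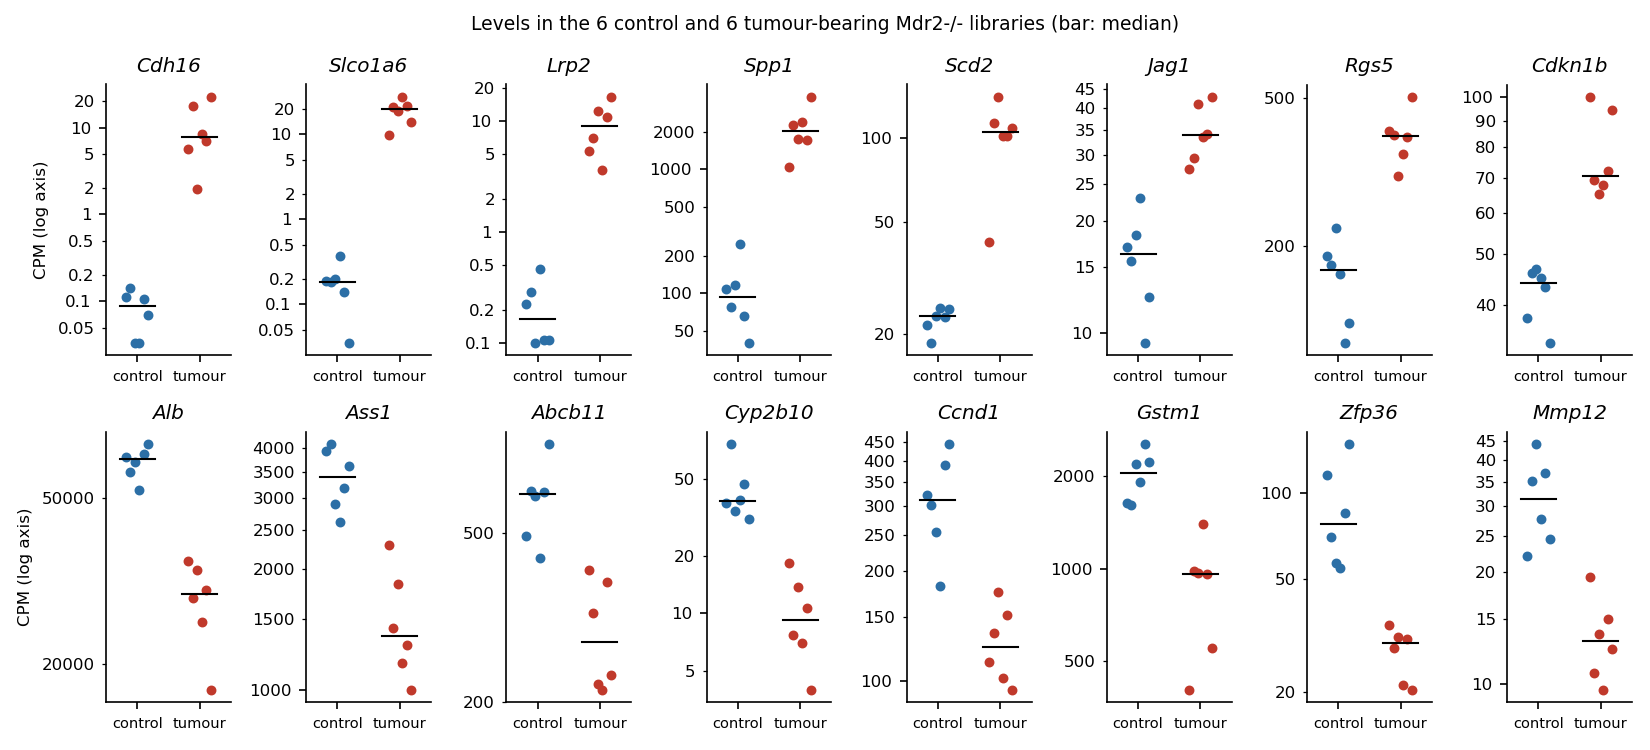
CPM on log axes for 16 of the named genes in the 6 control (blue) and 6 tumour-bearing (red) Mdr2-/- libraries, with the median as a bar. The first 8 are risen genes and the last 8 fallen genes, and the groups overlap in none of them.

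Oncofetal and hepatoblast genes, which the fetal liver uses and the adult liver silences, rose in part. Of 15 listed 13 were tested, Lin28b and Sall4 being too low. Of the 13, 7 rose and 0 fell (median 0.88), with no overlap in 4, against 7.38% of all genes higher without overlap. With the nuclear RNA share as a covariate 6 rose. Scd2, a stearoyl-CoA desaturase of fetal liver and brain, was at 18.5 to 24.6 CPM (median 23.1) in controls and 42.5 to 141 CPM (median 106) in tumour-bearing livers. The change was 2.17 ± 0.25 (edgeR adjusted p = 2.35e-06), with replicate 1 as the lowest tumour-bearing library. Gpc3, the heparan sulphate proteoglycan glypican 3, went from a median of 1.21 CPM (0.634 to 1.72) to 7.08 CPM (3.19 to 32.1), a change of 3.14 ± 0.44 (edgeR adjusted p = 2.26e-05) without overlap. Igf2bp1, a fetal RNA-binding protein, was at 0 in the median control, 0.0351 CPM in the highest, and at 0.221 to 3.48 CPM in tumour-bearing livers. Its adjusted p was 6.85e-06 (edgeR), and no fold is given against so few counts. Controls were too low to bring Igf2bp1 through the filter, so its call is no support.

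The sizes of the Afp and Igf2 changes rested on 1 library, and for Igf2 the call did too. Afp, the fetal counterpart of albumin, was at 5.14 to 8.96 CPM (median 6.96) in controls and 8.25 to 564 CPM (median 12.9) in tumour-bearing livers, and Igf2, a fetal growth factor, at 0.968 to 3.79 CPM (median 1.94) in controls and 1.73 to 202 CPM (median 2.21) in tumour-bearing livers. The maximum was tumour-bearing replicate 3 in both cases. H19, the non-coding neighbour of Igf2, had its maximum of 105 CPM in the same library, where the other 5 tumour-bearing livers were at 2.83 to 7.42 CPM and controls at 7.91 to 54.1 CPM. Without replicate 3 the change of Afp was 0.84, still called, that of Igf2 0.20, no longer called, and that of H19 -2.11, then a called fall (edgeR adjusted p = 0.0462).

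YAP/TAZ target genes were examined because YAP1 was delivered. Of 21 tested 9 rose and 1 fell (median 0.42), with no overlap in 4, against 7.38% of all genes higher without overlap. With the nuclear RNA share as a covariate 4 rose and 0 fell. Ctgf, or Ccn2, a matricellular growth factor, went from a median of 21.9 CPM (10.1 to 59.8) to 73.3 CPM (55.7 to 139), a change of 1.63 ± 0.35 (edgeR adjusted p = 0.00156). Ankrd1, a stress-responsive ankyrin repeat protein, went from a median of 1.84 CPM (1.16 to 5.08) to 11.6 CPM (5.6 to 19.2), a change of 2.28 ± 0.58 (edgeR adjusted p = 0.00519) without overlap. Crim1, a transmembrane antagonist of bone morphogenetic proteins, and Ptpn14, a phosphatase that binds YAP1, changed by 0.54 ± 0.16 (edgeR adjusted p = 0.0114) and 1.3 ± 0.31 (edgeR adjusted p = 0.00364). Myof, F3, Igfbp3, Fjx1 and Tgfb2 also rose. The widely used target Cyr61, or Ccn1, did not pass (-0.15), nor did Amotl2 (-0.22) and Axl (-0.31). The 1 fall was of Dock5 (-0.68), at 0.25 under the nuclear RNA covariate and lost without any 1 of several libraries. Without control replicate 2, 3 members fell.

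YAP1 reaches DNA through TEAD factors, whose core motif is GGAATG. Of 17 promoter windows of listed targets in the RefSeq table of GRCm38.p6, each of 250 bases before to 50 after the start, 7 held the motif on either strand (41.2%), against 12.8% of the windows of genes tested, 13.5% of those of risen genes, 16.2% of those of genes risen at least 4-fold and 12.7% of those of fallen genes. Such a match is a description of the letters, not a site. Of the 22 listed targets 15 had a window, Ctgf and Fjx1 not among them. Of the 7 windows 3 belong to risen targets, and the others to Cyr61, Axl, Amotl2 and Lats2, which were not called. The windows of Tgfb2, F3, Igfbp3 and Myof, which rose, lack the motif. The list is of known targets, so its share says nothing of these livers. For Ankrd1, Crim1 and Ptpn14 the 250 bases before the start are printed, in lower case with the motif in capitals. It reads CATTCC where it is on the other strand.
Ankrd1 (chr19:36119845-36120094, minus strand): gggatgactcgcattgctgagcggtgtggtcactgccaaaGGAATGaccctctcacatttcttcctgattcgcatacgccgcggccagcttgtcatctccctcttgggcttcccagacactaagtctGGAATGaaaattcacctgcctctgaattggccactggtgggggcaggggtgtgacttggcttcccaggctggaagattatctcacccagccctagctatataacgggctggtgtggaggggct
Crim1 (chr17:78199998-78200247, plus strand): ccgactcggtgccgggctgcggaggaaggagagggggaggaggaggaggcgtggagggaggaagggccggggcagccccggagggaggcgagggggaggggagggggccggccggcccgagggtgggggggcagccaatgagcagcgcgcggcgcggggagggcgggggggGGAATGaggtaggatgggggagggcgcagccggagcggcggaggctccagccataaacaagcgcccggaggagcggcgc
Ptpn14 (chr1:189728018-189728267, plus strand): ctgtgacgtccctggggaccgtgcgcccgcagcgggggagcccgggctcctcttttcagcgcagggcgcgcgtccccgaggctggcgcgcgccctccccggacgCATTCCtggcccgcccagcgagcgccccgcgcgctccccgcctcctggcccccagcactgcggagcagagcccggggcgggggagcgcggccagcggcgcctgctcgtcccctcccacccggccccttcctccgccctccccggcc
Ankrd1 holds it in 2 places, starting 210 and 123 bases before the start, Crim1 79 bases and Ptpn14 146 bases before it. The coordinates are of GRCm38.p6, while the counts are on mm39.

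Notch signalling, which guides hepatocyte and progenitor cells toward ducts, had calls in both directions. Of 20 genes tested 4 rose and 3 fell (median 0.17), shares near those over all genes (17.9% risen and 17.0% fallen). Among ligands, Jag1 was at 9.42 to 22.9 CPM (median 16.3) in controls and 27.4 to 42.9 CPM (median 33.8) in tumour-bearing livers, a change of 1.12 ± 0.22 (edgeR adjusted p = 0.00069) without overlap. Jag2, at under 3 CPM, changed by 1.42 ± 0.35 (edgeR adjusted p = 0.0047), while Dll1 changed by -1.12 ± 0.24 (edgeR adjusted p = 0.00139). The receptors Notch1 to Notch4 ranged from -0.31 to 0.48 and the targets Hes1, Hey1, Hey2, Heyl and Nrarp from -0.17 to 0.89, and none of them passed.

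Most hepatocyte genes fell. Of 22 secreted proteins and lineage factors tested 14 fell and 0 rose (median -0.69). In 11 there was no overlap, against 7.62% of all genes lower without overlap. Alb, which encodes albumin, was at 52121 to 67122 CPM (median 61738) in controls and 17356 to 35284 CPM (median 29386) in tumour-bearing livers. The change was -1.1 ± 0.17 (edgeR adjusted p = 9.96e-05), with every tumour-bearing library below every control. Trf, or transferrin, changed by -0.78 ± 0.15 (edgeR adjusted p = 0.000747) and Ahsg, or fetuin A, by -1.06 ± 0.20 (edgeR adjusted p = 0.000448). Hnf4a, the central transcription factor of hepatocytes, went from a median of 533 CPM (379.7 to 689) to 255 CPM (167 to 316), and Asgr2, a subunit of the asialoglycoprotein receptor, from a median of 261 CPM (229 to 320.2) to 119 CPM (92.3 to 148), neither with overlap. Their changes were -1.12 ± 0.25 (edgeR adjusted p = 0.00225) and -1.2 ± 0.18 (edgeR adjusted p = 4.84e-05). Apoa1 (0.06), Apoc3 (-0.07) and Cebpa (-0.16) did not pass. With the nuclear RNA share as a covariate 6 of the 22 fell.

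Bile acid genes fell among both transporters and enzymes. Of 26 tested 13 fell and 1 rose (median -0.55). Abcb11, the bile salt export pump of the canaliculus, was at 438 to 812 CPM (median 619) in controls and 214 to 409.5 CPM (median 278) in tumour-bearing livers, a change of -1.02 ± 0.22 (edgeR adjusted p = 0.00147) with no overlap. Slc51b, a subunit of the basolateral exporter that works when bile acids build up, went from a median of 14.4 CPM (6.53 to 30.5) to 3.41 CPM (2.05 to 7.92), a change of -2.03 ± 0.35 (edgeR adjusted p = 0.000191), the largest fall of the list. Abcc3, Abcg5, Abcg8, Abcb1a, Slc10a1 and Slco1a4 also fell. Among enzymes of synthesis and conjugation Slc27a5 (-0.86), Amacr (-0.51), Acox2 (-0.60) and Cyp27a1 (-0.57) fell, the last 2 being lost in some fits that leave out 1 library. Cyp7a1 (0.05), the rate-limiting enzyme, Cyp7b1 (0.15), Cyp8b1 (0.86) and the bile acid receptor Nr1h4 (0.05) did not pass. Slco1a1, a basolateral anion importer, rose by 0.65 ± 0.21 (edgeR adjusted p = 0.0228), a call lost without tumour-bearing replicate 1 (0.57) or 2 (0.55) or control replicate 1 (0.59) or 6 (0.56). With the nuclear RNA share as a covariate 2 of the 26 fell and 0 rose.

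Drug-metabolising cytochrome P450 genes followed. Of 23 tested 15 fell and 0 rose (median -0.77), with no overlap in 6, against 7.62% of all genes lower without overlap. Under the nuclear RNA covariate 4 fell. Cyp2b10, a classical target of the receptor CAR, was at 31 to 76.2 CPM (median 38.3) in controls and 3.99 to 18.3 CPM (median 9.2) in tumour-bearing livers. Its change of -2.11 ± 0.37 (edgeR adjusted p = 0.000239) was the largest fall among genes of at least 5 CPM without overlap. Cyp1a2, a caffeine-oxidising enzyme, went from a median of 364 CPM (290.4 to 440.1) to 148 CPM (95.8 to 219.5), a change of -1.24 ± 0.26 (edgeR adjusted p = 0.00122). Cyp2e1 (-0.10) and Cyp3a25 (-0.11) did not pass.

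Urea cycle, gluconeogenesis and amino acid breakdown had 14 of 19 fallen and 1 risen (median -0.88), the lowest median of the lists. In 8 there was no overlap, against 7.62% of all genes lower without overlap. Ass1, argininosuccinate synthase of the urea cycle, was at 2624 to 4098 CPM (median 3401) in controls and 998 to 2298 CPM (median 1362) in tumour-bearing livers, a change of -1.17 ± 0.20 (edgeR adjusted p = 0.000197). Hal, which breaks down histidine, changed by -1.45 ± 0.25 (edgeR adjusted p = 0.00019). Asl, Nags, Slc25a15, Pck1, Fbp1, Tat, Sds, Gls2, Hpd and Hgd fell too, but Otc (-0.05) and Arg1 (0.53) did not pass. Under the nuclear RNA covariate 3 fell and 0 rose. Cps1, the entry enzyme of the urea cycle, changed by -0.73 ± 0.23 (edgeR adjusted p = 0.0189), a call lost without tumour-bearing replicate 6 (-0.61).

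Of 15 pericentral zonation genes, which line the central vein, 4 fell and 0 rose (median -0.41, and 0.17 under the nuclear RNA covariate, where 0 fell). Over all genes 17.0% fell. Oat and Cyp1a2 fell in each fit that leaves out 1 library. Glul, which was at 0.25 under that covariate, and Gulo were the other calls, and 2 of the 4 fell without tumour-bearing replicate 6, control replicate 1 or control replicate 6. The Wnt targets Axin2 (-0.68), Lgr5 (0.33), Rnf43 (-0.24), Nkd1 (-0.44) and Sp5 (-0.31) did not pass.

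Lipid genes split. In fatty acid synthesis 5 of 19 rose and 1 fell, with a median of 0.01, against 17.9% risen and 17.0% fallen over all genes. Scd1, the main stearoyl-CoA desaturase of adult liver, was at 2721 to 4616 CPM (median 3276) in controls and 4291 to 13178 CPM (median 8798) in tumour-bearing livers, a change of 1.39 ± 0.25 (edgeR adjusted p = 0.000296), the lowest tumour-bearing library being just below the highest control. Pnpla3, a lipid droplet lipase, went from a median of 5.56 CPM (3.62 to 7.08) to 19.7 CPM (7.24 to 38.6), a change of 1.96 ± 0.42 (edgeR adjusted p = 0.0016) without overlap. Me1 also rose, and Acacb and Gpam did in the fit of all libraries, whereas Fasn (-0.26), Acaca (-0.33), Acly (-0.22) and Srebf1 (-0.48) did not pass. Leaving out tumour-bearing replicate 2 or 4 or control replicate 2, 3, 4 or 5 left 3 rises.

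In fatty acid oxidation 7 of 21 fell and 2 rose (median -0.40). Acaa2, the mitochondrial thiolase, went from a median of 704 CPM (583 to 781) to 469 CPM (283 to 494), a change of -0.69 ± 0.14 (edgeR adjusted p = 0.00128) without overlap. Under the nuclear RNA covariate 0 fell and 2 rose. Of 23 cholesterol genes 3 fell and 0 rose, with a median of -0.21, a share of falls below the 17.0% over all genes. Srebf2, a master regulator of cholesterol synthesis, was among the falls, a call lost without control replicate 6 (-0.59), and its change was 0.11 under the nuclear RNA covariate. Of the list, 5 or 6 genes fell without control replicate 2, 3 or 4 or tumour-bearing replicate 2 or 3. In the libraries without muscle RNA 11 of the 23 fell, and in those with it 0.

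Glycolysis genes gave 2 rises and 4 falls of 20 (median -0.04, of the other sign with upper-quartile factors, total library size or TPM). These shares lie below the 17.9% risen and near the 17.0% fallen over all genes. One of the rises was Pfkp, the platelet type of phosphofructokinase, at 2.85 to 4.29 CPM (median 3.76) in controls and 4.42 to 8.75 CPM (median 6.46) in tumour-bearing livers, a change of 0.83 ± 0.21 (edgeR adjusted p = 0.00572). Without control replicate 1, 2, 3 or 6 or tumour-bearing replicate 2 or 5, 2 fell, and 1 without tumour-bearing replicate 6. Of 15 FOXO targets, which AKT is known to hold down, 2 rose and 4 fell (median -0.34), against 17.9% and 17.0% of all genes. Their median was 0.01 under the nuclear RNA covariate, where 0 fell, and 1 fell with total library size. Cdkn1b, the inhibitor of cyclin-dependent kinases p27, was at 33.9 to 47 CPM (median 44.1) in controls and 65.2 to 99.9 CPM (median 70.6) in tumour-bearing livers. It rose by 0.89 ± 0.20 (edgeR adjusted p = 0.00208) with no overlap, but its change was 0.18 and no longer called under the nuclear RNA covariate. Pck1, the rate-setting enzyme of gluconeogenesis, went from a median of 1484 CPM (760.5 to 3155) to 767 CPM (535 to 1014), a change of -1.07 ± 0.30 (edgeR adjusted p = 0.00951). Without tumour-bearing replicate 4 or 6 or control replicate 6, 2 of the targets fell.

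**Figure D4:**
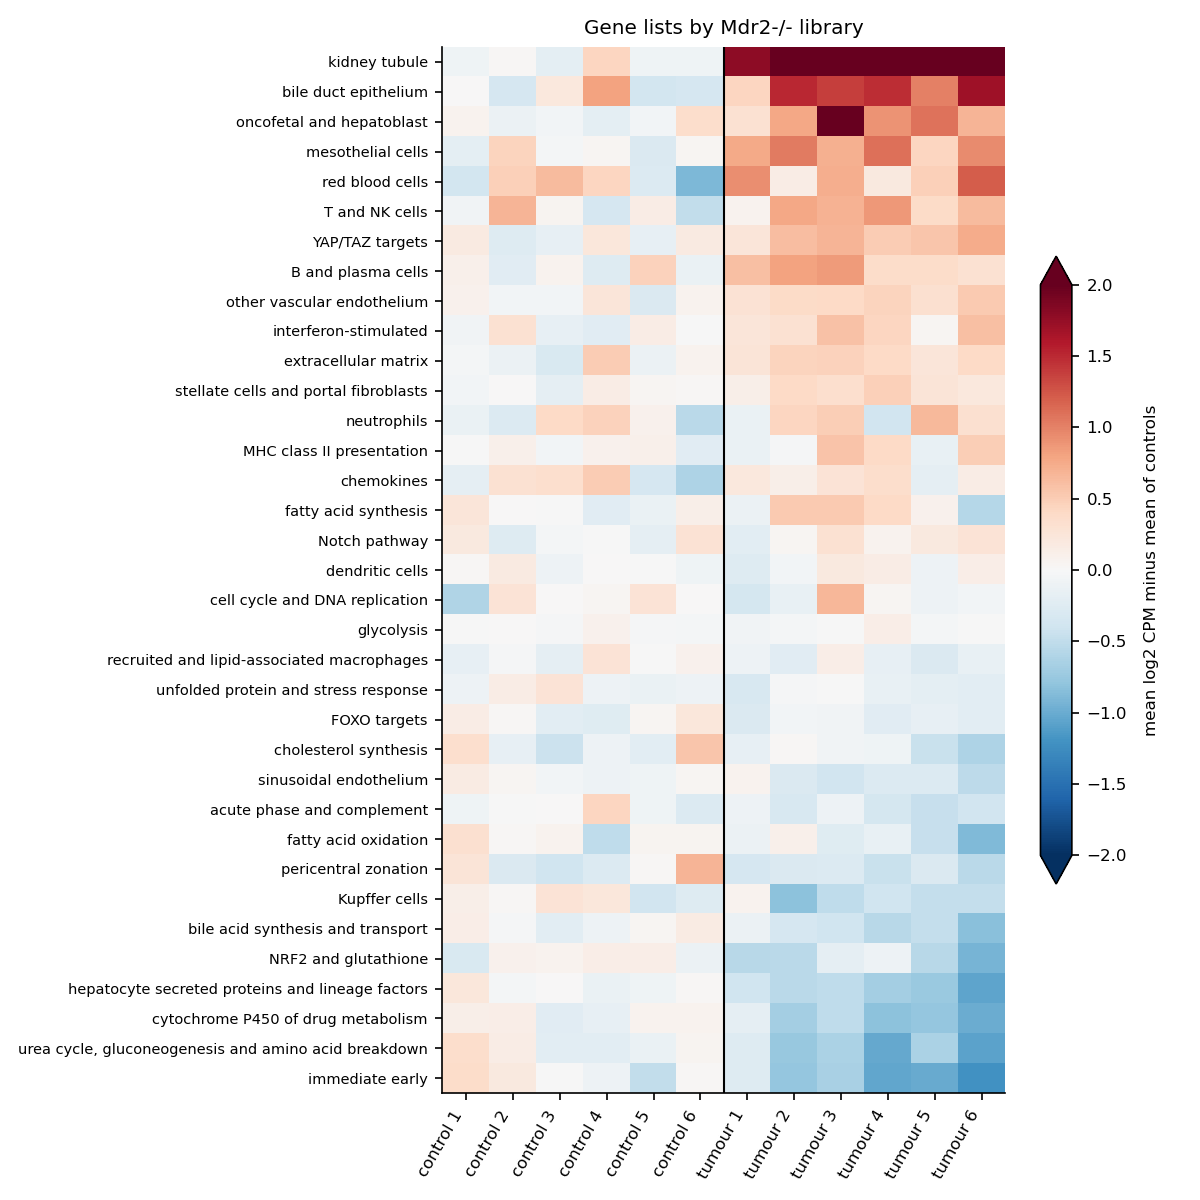
Mean log2 CPM of the tested members of the gene lists (rows), minus the mean of the 6 controls, in each Mdr2-/- library (columns, 6 controls then 6 tumour-bearing). Colours run from -2 (blue) to 2 (red), and values beyond are drawn at the ends. Kidney tubule and bile duct lists are at the top, and urea cycle and immediate early lists at the bottom.

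Cell cycle genes gave more falls than rises. Of 27 tested 1 rose and 8 fell (median 0.11, against 0.04 for all genes). Ccnd1, the cyclin that starts the cycle in hepatocytes, was at 182 to 443.9 CPM (median 313) in controls and 94.5 to 175 CPM (median 124) in tumour-bearing livers. Its change was -1.3 ± 0.21 (edgeR adjusted p = 0.00011), without overlap. The 6 subunits of the replicative helicase, Mcm2 to Mcm7, fell, with Mcm6 at -1.15 ± 0.26 (edgeR adjusted p = 0.00244). E2f1, a factor of the start of DNA replication, was the last of the 8 (-0.41), a call lost without control replicate 5 (-0.34) or 6 (-0.37) or tumour-bearing replicate 1 (-0.38) or 6 (-0.35). The mitotic genes Mki67 (0.27), Top2a (0.60), Ccnb1 (0.71), Bub1 (0.92), Aurkb (0.51) and Plk1 (-0.21) did not pass. Ccna2, cyclin A2, rose by 0.86 ± 0.33 (edgeR adjusted p = 0.0449), a call kept in 4 of the 12 fits that each leave out 1 library (0.64 to 0.90 where it was lost). With the muscle RNA covariate 4 members rose and 8 fell. With the nuclear RNA covariate 0 rose and 1 fell, and under total library size 5 rose and 6 fell.

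Matrix genes and mesenchymal cells changed in part. Of 28 extracellular matrix genes 10 rose and 2 fell (median 0.21), and with the nuclear RNA covariate 2 rose and 1 fell. Sparc, a collagen-binding matricellular protein, was at 226 to 482 CPM (median 284) in controls and 612 to 909.5 CPM (median 748) in tumour-bearing livers, a change of 1.23 ± 0.18 (edgeR adjusted p = 2.87e-05) without overlap. Lox, which crosslinks collagen, went from a median of 2.71 CPM (2.21 to 9.65) to 13.6 CPM (6.65 to 23.6), a change of 1.9 ± 0.44 (edgeR adjusted p = 0.00295). Col3a1, of the fibrillar collagens, changed by 0.95 ± 0.25 (edgeR adjusted p = 0.00699), whereas Col1a1 (-0.15), Col1a2 (0.25), Col4a1 (0.16) and Timp1 (0.95) did not pass.

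Among 17 markers of stellate cells and portal fibroblasts tested 7 rose and 3 fell (median 0.45). Rgs5, a marker of pericytes, was at 109 to 222 CPM (median 172) in controls and 309 to 505 CPM (median 395) in tumour-bearing livers, a change of 1.26 ± 0.19 (edgeR adjusted p = 5.49e-05) without overlap. Acta2, the smooth muscle actin of activated stellate cells, went from a median of 1.85 CPM (1.31 to 2.99) to 5.5 CPM (3.81 to 12.7), a change of 1.67 ± 0.50 (edgeR adjusted p = 0.0136). Tagln, Cd34, Thy1, Fbln2 and Gas6 rose, Reln and Ngfr fell, and the defining stellate genes Lrat (-0.24) and Pdgfrb (-0.49) did not pass. Cnn1, a smooth muscle calponin from another list, went from a median of 0.0727 CPM (0 to 0.167) to 0.612 CPM (0.10 to 0.934), a change of 2.58 ± 0.64 (edgeR adjusted p = 0.00429). These controls were too low to bring Cnn1 through the filter, so its call is no support.

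Of 19 NRF2 and glutathione genes 10 fell and 2 rose (median -0.53), with no overlap in 5 of those lower, against 7.62% of all genes. Gstm1, a glutathione transferase, was at 1612 to 2546 CPM (median 2055) in controls and 403 to 1401 CPM (median 963) in tumour-bearing livers, a change of -1.2 ± 0.35 (edgeR adjusted p = 0.0114), which was -0.07 and no longer called under the nuclear RNA covariate. Gsta1, Gsta2, Gsta4, Hmox1, Srxn1, Txnrd1 and Ugdh fell too. Cbr3, a carbonyl reductase, rose by 2.21 ± 0.28 (edgeR adjusted p = 6.78e-06) and Slc7a11, the cystine importer, also rose. Nqo1 (-0.28), the usual reporter of NRF2, did not pass. Under the nuclear RNA covariate 4 fell and 1 rose.

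Immediate early genes, which respond rapidly to growth factors, fell in 9 of 17 and rose in 0 (median -0.71). Egr1, a zinc finger factor, was at 28.7 to 64.9 CPM (median 36.8) in controls and 7.36 to 17.9 CPM (median 12.7) in tumour-bearing livers, a change of -1.77 ± 0.47 (edgeR adjusted p = 0.0073). Zfp36, which destabilises inflammatory messages, was at 54.4 to 148 CPM (median 77.5) in controls and 20.3 to 34.3 CPM (median 29.7) in tumour-bearing livers, a change of -1.67 ± 0.36 (edgeR adjusted p = 0.0016). Neither overlapped between groups. Nr4a1, an orphan nuclear receptor, changed by -1.9 ± 0.33 (edgeR adjusted p = 0.000222), and Fosb, Egr2 and Dusp1 fell. The calls of Ier2, Klf2 and Jund were each lost in several fits that leave out 1 library. Fos (-0.83), Jun (-0.49) and Myc (-0.71) did not pass. Under the nuclear RNA covariate 1 fell, and under total library size 5 fell and 1 rose.

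Of 26 acute phase and complement genes, made largely by hepatocytes, 13 fell and 0 rose (median -0.37), and 8 fell without tumour-bearing replicate 6. C3, the central complement protein, was at 12674 to 20874 CPM (median 14473) in controls and 6037 to 9184 CPM (median 8529.9) in tumour-bearing livers, a change of -1.0 ± 0.20 (edgeR adjusted p = 0.000958) without overlap. Hpx, or hemopexin, changed by -0.72 ± 0.17 (edgeR adjusted p = 0.00306). The serum amyloids Saa1 (0.08), Saa2 (0.10) and Saa3 (0.95) did not pass. Of 16 unfolded protein and stress response genes 5 fell and 1 rose (median -0.30), against 17.0% and 17.9% of all genes. Without tumour-bearing replicate 6 or control replicate 3, 3 fell. The rise was of Asns, asparagine synthetase, which went from a median of 0.559 CPM (0.246 to 0.968) to 1.77 CPM (0.589 to 2.74), a change of 1.67 ± 0.40 (edgeR adjusted p = 0.00339).

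Immune genes moved in both directions. Of 22 interferon-stimulated genes 8 rose and 1 fell (median 0.38), and with the nuclear RNA covariate 1 rose and 0 fell. Ifi27 went from a median of 39.7 CPM (33.6 to 55.7) to 74.6 CPM (46 to 94.7), a change of 0.81 ± 0.18 (edgeR adjusted p = 0.00172). Cxcl9, a chemokine for T cells induced by interferon gamma, changed by 1.54 ± 0.41 (edgeR adjusted p = 0.00685), while Oasl1 fell. Among 18 chemokines 3 rose and 2 fell (median -0.21, and above 0 with total library size or TPM plus 1). Neither share is above that over all genes (17.9% risen and 17.0% fallen). Cxcl16 rose by 0.87 ± 0.21 (edgeR adjusted p = 0.00385) and Ccl8, under 2 CPM in each library, by 2.65 ± 0.65 (edgeR adjusted p = 0.00409). Cxcl12, made by stromal cells, changed by -0.45 ± 0.13 (edgeR adjusted p = 0.0113). The monocyte attractant Ccl2 (-0.54) did not pass. Of 9 MHC class II genes edgeR called 0 (median 0.21), with 1 at an unadjusted p under 0.05, while DESeq2, upper-quartile factors and limma on log2(TPM + 1) each called 1 and total library size 3.

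Resident macrophages of the liver, the Kupffer cells, had 5 of 13 markers fallen and 0 risen (median -0.30). Timd4, their phosphatidylserine receptor, was at 10.2 to 16.2 CPM (median 11.6) in controls and 3.85 to 7.11 CPM (median 6.91) in tumour-bearing livers, a change of -1.0 ± 0.15 (edgeR adjusted p = 5.59e-05) without overlap. Vsig4, a complement receptor, changed by -0.78 ± 0.15 (edgeR adjusted p = 0.000609), and Folr2 fell. The calls of Marco and C1qc did not hold in each fit that leaves out 1 library. Clec4f (-0.13), the gene most particular to these cells, did not pass, nor did Adgre1 (0.07) and Csf1r (-0.30). Of 16 markers of recruited and lipid-associated macrophages 1 rose and 3 fell (median -0.02, above 0 with upper-quartile factors, total library size or TPM plus 1), and 3 rose without control replicate 4. The share fallen is near the 17.0% over all genes, and the share risen is below 17.9%. Mmp12, a macrophage elastase, was at 22 to 44.1 CPM (median 31.4) in controls and 9.64 to 19.4 CPM (median 13) in tumour-bearing livers, a change of -1.24 ± 0.29 (edgeR adjusted p = 0.00307), and Gpnmb, a lysosomal glycoprotein, at 3.27 to 12 CPM (median 4.69) in controls and 0.655 to 3.17 CPM (median 1.79) in tumour-bearing livers, a change of -1.74 ± 0.39 (edgeR adjusted p = 0.00194). Neither overlapped. Trem2 (-0.04), Cd9 (-0.08) and Lgals3 (0.19) did not pass, and Fabp5 rose.

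Sinusoidal endothelium, the fenestrated lining of liver capillaries, had 5 of 15 markers fallen and 0 risen (median -0.27), against 17.0% fallen over all genes. Dnase1l3, a secreted nuclease, was at 64.1 to 119.9 CPM (median 91.2) in controls and 37.9 to 60.8 CPM (median 52.5) in tumour-bearing livers, a change of -0.86 ± 0.16 (edgeR adjusted p = 0.000369) without overlap. Gata4, Fcgr2b, Oit3 and Stab1, a scavenger receptor, also fell, the call of Stab1 being lost without control replicate 6 (-0.35). Stab2 (-0.20), Lyve1 (-0.14) and Clec4g (-0.16) did not pass. Of 12 genes of other vessels 5 rose, among them Cd34, Emcn, Efnb2 and Pdpn, and Plvap fell (median -0.15, and 0.09 with total library size).

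Several T cell genes rose from low levels. The summed level of 17 T and NK cell markers was 14.5 to 37.0 CPM in controls (median 18.7) and 19.1 to 43.4 CPM in tumour-bearing livers (median 35.2), so that the groups overlapped. Of the 17, 5 rose and 0 fell (median 0.76), against 17.9% risen over all genes. Trbc1, Trbc2 and Cd3d rose in each fit that leaves out 1 library. Cd3d went from a median of 0.471 CPM (0.281 to 0.975) to 1.41 CPM (0.841 to 1.83), a change of 1.46 ± 0.26 (edgeR adjusted p = 0.000328). Without control replicate 2 or tumour-bearing replicate 1, or with the muscle RNA covariate, 8 rose, and 3 without control replicate 4 or 6 or tumour-bearing replicate 6. The cytotoxic genes Gzma (0.03), Gzmb (-0.30) and Prf1 (-0.14) did not pass. Of the plasma cell genes Jchain, the joining chain of secreted antibodies, was at 1.44 to 2.74 CPM (median 1.88) in controls and 8.96 to 19.7 CPM (median 11.6) in tumour-bearing livers, a change of 2.78 ± 0.41 (edgeR adjusted p = 3.57e-05) without overlap. Igkc and Igha also rose, whereas the B cell genes Cd79a (-0.22) and Ms4a1 (-0.03) did not pass.

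Few calls in the lists not yet given in this way were made with the nuclear RNA share as a covariate. In fatty acid synthesis 5 rose and 0 fell, in the Notch pathway 3 rose and 0 fell, in stellate cell markers and in other vessels 2 rose and 0 fell, and in FOXO targets and in T and NK cells 1 rose and 0 fell. In acute phase genes 5 fell and 0 rose, in Kupffer cell markers 4, in chemokines 3, and in recruited macrophage and sinusoidal markers 1 each. Cholesterol, glycolysis, unfolded protein response and MHC class II genes had 0 calls. In kidney tubule genes 3 rose, in fat cell genes 2 and in B and plasma cell genes 1, and none of these lists had a fall.

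Among the genes given with a change and its error, 82 were called, and under this covariate 42 kept the call and 40 lost it. Of the 40, 12 stayed within 1.5 times of their change, namely Cftr, Cd24a, Ankrd1, Crim1, Pfkp, Ccna2, Acta2, Cnn1, Asns, Abcb11, Cps1 and Mcm6. The other 28 moved further. Malat1 is itself a small part of the share, so the loss of its call is not independent of the covariate. Beside Cdkn1b the rises were then at 1.08 for Lox, 1.43 for Ccl8, 0.89 for Ctgf, 0.56 for Malat1, 0.48 for Cxcl16, 0.39 for Col3a1, 0.34 for Cxcl9, 0.22 for Slco1a1 and 0.18 for Ifi27. Beside Gstm1 and Yap1 the falls of liver genes were at -0.93 for Hal, -0.59 for Ahsg, -0.56 for Cyp1a2, -0.45 for Pck1, -0.41 for Trf, -0.39 for Acaa2, -0.34 for C3 and -0.26 for Hnf4a. Of the remaining falls Gpnmb was at -1.02, Egr1 at -0.78, Ccnd1 at -0.68, Myo7b at -0.46, Zfp36 at -0.46, Dnase1l3 at -0.42, Dll1 at -0.32 and Cxcl12 at -0.25.

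Markers of other tissues were read in the same way. Of 6 mesothelial genes 2 rose and 2 fell, and under the nuclear RNA covariate 2 and 1. Upk3b, which encodes a uroplakin, was at 0.10 to 0.433 CPM (median 0.257) in controls and 2.3 to 4.65 CPM (median 4.18) in tumour-bearing livers. Its change was 3.83 ± 0.48 (edgeR adjusted p = 6.04e-06), and Gpm6a rose. Controls were too low to bring Upk3b through the filter, so its call is no support. The falls were of Krt8 (-0.62), a keratin not particular to mesothelial cells, and Lrrn4 (-1.11), a call lost in some fits that leave out 1 library. The defining gene Msln (-0.28) did not pass. The fat cell genes Cidec and Fabp4 both rose, Cidec by 1.73 ± 0.35 (edgeR adjusted p = 0.00101), and the other 5 listed, Adipoq among them, were too low to be tested. Of the red blood cell genes Hbb-bs (1.63) and Hbb-bt (1.35) rose, Hbb-bs being at -0.08 under the nuclear RNA covariate. Haemoglobin took 0.0461 to 0.177% of the counts in tumour-bearing livers and 0.0132 to 0.0578% in controls.

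The tumour effect in Mdr2-/- mice was then set against that in wild-type mice, which rests on 12 other libraries, by a test of the difference itself. In wild type the title number moves nearly with the groups. It is 2000 or over in every tumour-bearing library and below 2000 in every control but replicate 6. Muscle genes were below 500 CPM in wild-type control replicates 3 and 4 and in no wild-type tumour-bearing library. The wild-type effect, and each difference from it, is thus not separated from the title number range. Levels of Xist and the Y-linked genes were read in the Mdr2-/- libraries alone. The sex of the wild-type mice, on which each difference also rests, was not checked. In wild type 2915 genes rose (16.9%) and 1976 fell (11.5%). Of the 3074 genes risen in Mdr2-/- mice 928 rose in wild type as well, which is 30.2% of the former and 31.8% of the latter, and 235 fell there. Of the 2921 fallen genes 483 fell in wild type, 16.5% and 24.4% of the lists, and 243 rose there. The difference test called 4355 genes (25.3%), higher in Mdr2-/- for 2042 (11.9%) and lower for 2313 (13.4%). It was larger in the same direction for 1116 of the risen and 1065 of the fallen genes.

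**Figure D5:**
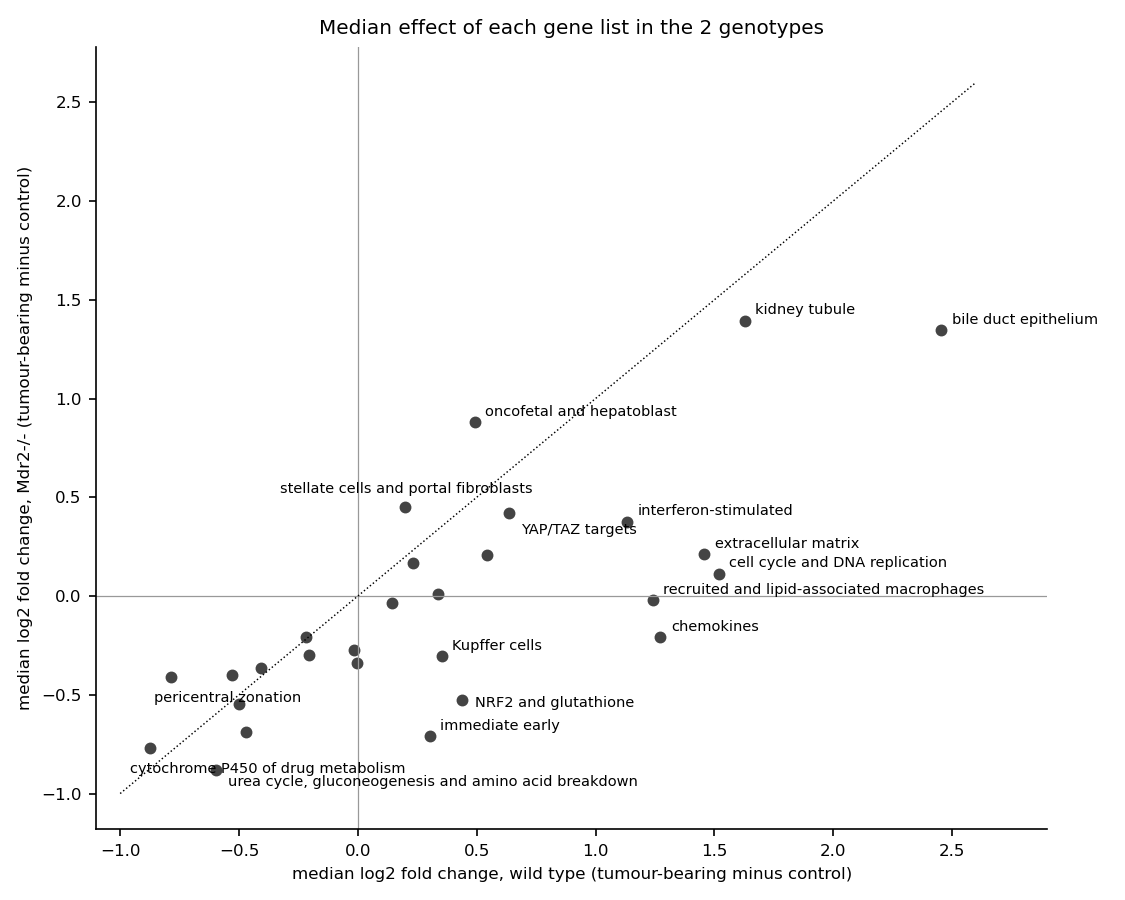
Median log2 fold change of the tested members of each main gene list in wild-type livers (horizontal axis) and Mdr2-/- livers (vertical axis), both tumour-bearing minus control. The dotted line marks equal effects. Lists such as cell cycle, extracellular matrix, chemokines and recruited macrophages lie above 1 in wild type and between -0.21 and 0.21 in Mdr2-/-.

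The difference test called many members in cell cycle, matrix, NRF2, immediate early and macrophage lists, where it called 25.3% of all genes. Of 27 cell cycle genes 24 rose in wild type (median 1.52), and the effect was lower in Mdr2-/- mice for 19 and higher for 0. Mcm6 differed by -3.62 ± 0.39 (edgeR adjusted p = 1.29e-06) and Ccnd1 by -1.42 ± 0.29 (edgeR adjusted p = 0.00157). Of 28 matrix genes 25 rose in wild type (median 1.46), and 14 differed, such as Col3a1 by -1.35 ± 0.36 (edgeR adjusted p = 0.00902). NRF2 genes differed in 11 of 19 and immediate early genes in 12 of 17, Gstm1 by -2.72 ± 0.49 (edgeR adjusted p = 0.00057). Among recruited macrophage markers 12 of 16 were lower, with Mmp12 at -3.81 ± 0.44 (edgeR adjusted p = 2.77e-06), and among Kupffer cell markers 8 of 13, with Vsig4 at -1.21 ± 0.21 (edgeR adjusted p = 0.000422). In none of these lists was a member higher in the difference test.

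Both controls and tumour-bearing livers enter such a difference. Summed over the cell cycle list, controls of the Mdr2-/- genotype were at 575 to 861 CPM (median 674) and its tumour-bearing livers at 408 to 673 CPM (median 445). Wild-type controls were at 219.7 to 264 CPM (median 249) and tumour-bearing livers at 325 to 570.2 CPM (median 435). The tumour-bearing groups of the genotypes overlapped, and the controls did not. Ccnd1 made up much of these sums. Without it the Mdr2-/- controls were at 280.4 to 472 CPM (median 380.0) and the tumour-bearing livers at 295 to 498 CPM (median 325), which overlap, and wild-type controls at 108 to 171 CPM (median 129) and tumour-bearing livers at 241 to 431 CPM (median 302). For the 9 MHC class II genes the medians were 640.0 and 747 CPM in Mdr2-/- controls and tumour-bearing livers, and 262 and 332 CPM in wild type.

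Bile duct, hepatocyte and cytochrome P450 lists had fewer differences, with shares near or below the 25.3% over all genes. In bile duct markers 16 of 23 rose in wild type, and the difference test called 1 higher and 5 lower in Mdr2-/- mice. For Spp1 the difference was 1.14 ± 0.67 (edgeR adjusted p = 0.204), which did not pass. For hepatocyte secreted proteins 11 of 22 fell in wild type and 3 differed, and for cytochrome P450 genes 16 of 23 fell and 3 were higher and 2 lower. Higher in the difference test were Cdh16, at 2.62 ± 0.71 in wild type and a difference of 4.31 ± 1.14 (edgeR adjusted p = 0.00926), and Lrp2, which differed by 3.21 ± 0.78 (edgeR adjusted p = 0.0053). Scd2 differed by 1.68 ± 0.35 (edgeR adjusted p = 0.00161), Rgs5 by 1.06 ± 0.27 (edgeR adjusted p = 0.00646) and Cdkn1b by 1.25 ± 0.28 (edgeR adjusted p = 0.00308).

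The extremes of the difference were genes with large effects in wild type. The 5 highest were Cyp3a44, Cyp3a16, Cyp3a41b, Cyp3a41a and Cyp3a63-ps, neighbours of 1 family whose near-identical sequences can share reads, so that their separate counts are uncertain. Their differences were 5.82 to 6.46, with falls of 4.04 to 5.58 on the log2 scale in wild type and values of 0.70 to 1.91 in Mdr2-/- mice that did not pass. The 5 lowest were Tinag (-4.84), Ang5 (-4.62), Sprr1a (-4.61), Slpi (-4.49) and Cyp4a12a (-4.4), and each of them rose in wild type. Slpi, an inhibitor of leukocyte elastase, was at 138 to 267 CPM (median 186) in controls and 39 to 157 CPM (median 72.5) in tumour-bearing livers, a change of -1.17 ± 0.24 (edgeR adjusted p = 0.00112), where wild type had 3.32 ± 0.27. Tinag, a basement membrane antigen, rose by 4.44 ± 0.27 in wild type and was at -0.41 ± 0.20 in Mdr2-/- mice, which did not pass.

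The falls without overlap and with the largest size, beside Cyp2b10 and Egr1, included Hcar2, a receptor for nicotinic acid, at 3.94 to 8.57 CPM (median 5.11) in controls and 0.953 to 2.25 CPM (median 1.17) in tumour-bearing livers, a change of -1.91 ± 0.28 (edgeR adjusted p = 3.52e-05). Adssl1, a purine nucleotide enzyme, was at 31.3 to 47.1 CPM (median 42.4) in controls and 8.19 to 16.5 CPM (median 13.1) in tumour-bearing livers, a change of -1.68 ± 0.18 (edgeR adjusted p = 8.77e-07). Ptgds, a prostaglandin D synthase, changed by -1.98 ± 0.34 (edgeR adjusted p = 0.000196). Dnah1, a dynein of cilia, changed by -1.75 ± 0.28 and Myo7b, a brush border myosin, by -1.71 ± 0.33 (edgeR adjusted p = 0.000101 and 0.000609). Hcar2 rose by 1.52 ± 0.35 in wild type and differed by -3.43 ± 0.44 (edgeR adjusted p = 1.17e-05).

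Spread among the tumour-bearing livers was widest in the muscle genes Myh4, Atp2a1, Myl1, Ttn and Acta1, which followed the muscle RNA and not the groups. Myh4, a fast myosin heavy chain, was at 0.316 to 215 CPM (median 55.4) in controls and 0.324 to 167 CPM (median 91.3) in tumour-bearing livers. Leaving out the genes that went with the muscle RNA, the widest at a mean of 10 CPM or more were Afp, Igf2, H19, Cyp3a41a, Hectd2os and Cdh16. Cdh16 was lowest in tumour-bearing replicate 3, at 1.97 CPM, the library with the maximum of Afp, and highest in replicate 6, at 22.6 CPM. Hectd2os, an antisense transcript that cannot be told from its partner without strand, was also lowest in replicate 3, at 3.18 CPM.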

How the data were processed

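Total RNA of 24 mouse livers was sequenced after depletion of ribosomal RNA, in paired reads, per the labels' protocols. The authors deposited raw counts per gene and TPM in a table of 49315 genes. The submitters' processing notes name mm39 and DESeq2, without versions or roles, while for the aligner, counter and strand setting nothing is given in the sources used here. All 24 columns matched a sample and 0 did not.

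Counts were fitted in edgeR 4.0.16 (R 4.3.3) with TMM factors, genes kept by filterByExpr at a minimum count of 10 (17216), a mean per group over the 24 libraries and the robust quasi-likelihood test. P-values were adjusted over all genes tested by Benjamini-Hochberg, with a threshold of 0.05. The biological coefficient of variation was 0.272. Replicates of a group differed beyond sampling noise, so none was counted as a duplicate. The steps were tested on simulated data of 15596 genes.

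The comparison and the gene lists were chosen with earlier results of these data known. The named genes were Abcb4, Akt1 and Yap1, the largest rises and falls without overlap at 5 CPM or more, those with the largest difference of mean CPM, the most abundant called members of each list, the largest differences between genotypes and the most variable genes. Not each of them is printed, and some genes are not reported here. Another 32 list members given with levels, the muscle list and the variable genes outside it were chosen after their values were seen, as were members named with a change alone. Alternatives were other scalings, filters, DESeq2 1.42.0, limma 3.58.1 on the authors' TPM, covariates, splits and leaving out each library. The muscle covariate and split were added after seeing the data. Promoters are from RefSeq's GRCm38.p6 table, in which 11970 of 17210 symbols matched, and gene types from GENCODE M21. No genome of build mm39 was used here.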

Additional observations from a re-analysis of the deposited data

Results flagged for a closer look

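Single libraries stood far from the other 5 of their group in 16 of 264 tests (6.06%), where chance alone flags about 1 in 20. Each is given as its level in CPM and as Dixon's ratio, taken on log2 levels. This ratio is the gap to the nearest library over the range of the group, against a critical value of 0.625 for 6 libraries. Afp, Igf2, H19 and Hectd2os were among the genes picked for the widest spread over the tumour-bearing libraries, so their flags are partly fixed by that choice. Control replicate 1 was the lowest for Sprr1a (4.20 CPM, ratio 0.815) and the lowest for Ccna2 (2.40 CPM, ratio 0.763). Control replicate 6 was the lowest for Efhd1 (0.176 CPM, ratio 0.804), the highest for Cyp3a16 (22.5 CPM, ratio 0.798), the highest for Cyp3a41a (41.8 CPM, ratio 0.689), the highest for Cyp3a63-ps (0.878 CPM, ratio 0.757), the highest for Igf2bp1 (0.0351 CPM, ratio 1) and the lowest for Ccl8 (0 CPM, ratio 0.725). Tumour-bearing replicate 1 was the highest for Abcb4 (59.3 CPM, ratio 0.733) and the lowest for Scd2 (42.5 CPM, ratio 0.727). Tumour-bearing replicate 3 was the highest for Afp (564 CPM, ratio 0.814), the highest for Igf2 (202 CPM, ratio 0.801), the highest for H19 (105 CPM, ratio 0.736) and the lowest for Hectd2os (3.18 CPM, ratio 0.627). Tumour-bearing replicate 6 was the highest for Prss35 (31.1 CPM, ratio 0.652) and the lowest for Trf (3253 CPM, ratio 0.645). Igf2bp1 and Ccl8 are at or near 0 counts in controls, where a ratio rests on single counts.

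The tumour effect differed between genotypes, by edgeR's test of the difference, for 55 named genes. Differences are log2 fold changes in Mdr2-/- minus wild-type mice, and they are not separated from the title number range in wild type. Higher in Mdr2-/- mice were Cyp3a44 (6.46), Cyp3a16 (6.28), Cyp3a41b (6.14), Cyp3a41a (5.95), Cyp3a63-ps (5.82), Cdh16 (4.31), Afp (4.30), Lrp2 (3.21), Upk3b (2.64) and Efhd1 (2.53). Also higher were Hectd2os (2.40), Acot1 (1.93), Scd2 (1.68), Malat1 (1.64), Slco1a1 (1.56), Cd24a (1.43), Cd3d (1.41), Cdkn1b (1.25), Tdo2 (1.10) and Rgs5 (1.06). The smallest was Fabp1 (0.92). Lower were Tinag (-4.84), Ang5 (-4.62), Sprr1a (-4.61), Slpi (-4.49), Cyp4a12a (-4.40), Gstm3 (-4.14), Mmp12 (-3.81), Mcm6 (-3.62), Hcar2 (-3.43), Myo7b (-2.97), Gstm1 (-2.72), Slc51b (-2.55) and Dnah1 (-2.37). Further lower values were those of Gpnmb (-2.22), Cidec (-1.92), Zfp36 (-1.65), Nr4a1 (-1.58), Atp6v0d2 (-1.57), Adssl1 (-1.48), Hpx (-1.45), Ccnd1 (-1.42), Col3a1 (-1.35), Jund (-1.29), Mcm7 (-1.27), Gas6 (-1.23) and Vsig4 (-1.21). The remaining ones were C1qc (-1.20), Timd4 (-1.04), Hnf4a (-0.99), Trf (-0.81), Apoe (-0.79), Asgr2 (-0.77), Dnase1l3 (-0.72) and Stab1 (-0.54).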

How the results depend on the processing

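The 5995 calls were recomputed under 29 alternatives. Of 132 named genes 117 were called, 89 of them under each alternative other than the covariates and the subsets of libraries, and 29 under each alternative. Calls, rises and falls numbered 1061, 711 and 350 within the libraries with muscle RNA, 764, 545 and 219 within title numbers below 2000, and 3585, 1752 and 1833 within those of 2000 and over, subsets with fewer libraries. With the nuclear RNA share as a covariate they numbered 960, 697 and 263, and the difference between genotypes 2682. With total library size 5565 rose and 924 fell. With limma 953 fell on log2(TPM + 0.1) and 1036 on log2(TPM + 1). Upper-quartile factors gave 4058 rises and 1967 falls. The median of all genes moved to 0.28 with total library size and 0.16 with upper-quartile factors. Leaving out each library in turn gave 4122 to 6298 calls, 2195 to 3195 rises, 1927 to 3174 falls and 3554 to 4559 differences between genotypes. Of 262 called list members 192 kept the call in each of these 12 fits, and 15 turned sign with the nuclear RNA share as a covariate. The cause of these changes was not tested.

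The sign of the change turned for these genes. With the nuclear RNA share as a covariate it was 0.054 for Abcb4, 0.034 for Yap1, 0.098 for Abcc2, 0.25 for Glul, 0.13 for Insr, 0.13 for Maml1, 0.31 for Fn1, 0.094 for Jund, 0.28 for Cd74, -0.57 for Myh4, -0.57 for Atp2a1 and -0.60 for Myl1. Within title numbers below 2000 it was 0.13 for Abcb4, 0.24 for Ttn and 0.31 for Acta1. With total library size it was 0.14 for Abcb4, 0.21 for Cd74 and 0.097 for Acta1. With upper-quartile factors it was 0.051 for Abcb4, 0.058 for Cd74 and 0.0087 for Acta1. Within the libraries without muscle RNA it was -0.28 for Apoa4, -0.78 for Cyp3a16, -0.33 for Cyp3a41b, -0.0031 for Cyp3a63-ps, -0.10 for Gpam, 1.10 for Ttn, 1.96 for Acta1, -0.15 for Igf2 and -3.01 for H19. Within title numbers of 2000 and over it was -1.07 for Cyp3a16, -0.80 for Cyp3a41b, 0.12 for Cd74, -0.020 for Atp2a1, -0.019 for Igf2 and -2.58 for H19. Within the libraries with muscle RNA it was 0.0014 for Cd74. With limma on log2(TPM + 0.1) it was 0.093 for Ttn, 0.58 for Acta1 and -1.03 for H19. With muscle RNA as a covariate it was 0.18 for Ttn, 0.18 for Acta1 and -0.54 for H19. With limma on log2(TPM + 1) it was 0.22 for Acta1 and -0.90 for H19. With DESeq2 it was -0.017 for H19. With DESeq2 size factors it was -0.017 for H19. Without a filter it was -0.092 for H19. In a fit of the 12 libraries it was -0.032 for H19. With the title number range as a covariate it was -0.21 for H19. Without mitochondrial, haemoglobin and nuclear RNA genes it was -0.043 for H19. Over the fits that leave out 1 library, Abcb4 ran from -0.37 to 0.010, Cyp3a16 ran from -0.074 to 2.09, Cd74 ran from -0.20 to 0.075, Myh4 ran from -0.24 to 0.71, Atp2a1 ran from -0.20 to 0.57, Myl1 ran from -0.19 to 0.42, Ttn ran from -0.46 to 0.065, Acta1 ran from -0.34 to 0.28 and H19 ran from -2.11 to 0.54. No paired analysis was possible because the replicate numbers follow the accession order and pair no samples. At 1 CPM a value rests on 26.6 to 34.2 counts, so fold changes of genes below it are imprecise. On simulated data the test recovered 64 of 98 changes of 2-fold and 94 of 98 of 4-fold.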
